A study of Mus musculus with 2 samples.

Results

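Elastic fibre and microfibril genes are the 10 genes Eln, Fbn1, Fbn2, Fbln1, Fbln2, Fbln5, Emilin1, Mfap2, Mfap4 and Mfap5. They were found by symbol in a table of peaks from the assay for transposase-accessible chromatin (ATAC-seq), in which the Tn5 enzyme cuts DNA that is not shielded by nucleosomes and the cuts pile up as peaks. The table assigned 61 of its 63316 peaks to 9 of these genes, and none to Mfap2. The cells were mouse primary cardiac fibroblasts exposed to TGF-β, the cytokine that drives fibroblasts to become contractile, matrix-secreting myofibroblasts, at 5 ng/ml for 24 h. One group received scrambled siRNA (SCR, labelled NC) and the other an siRNA against Piezo2 (siPiezo2), a mechanically gated cation channel, so TGF-β was given to both groups and no sample without it was compared here. There was 1 library per group, so no difference below has a replicate check and none was given a p-value. The series' design text speaks of a Tet3 deletion by Cre, whereas both sample labels and the study's legend give the siRNA design, which was followed here. The study's methods give a C57BL/6 J background for its mouse strains, while the age and number of animals behind these cultures are not given in the sources used here.

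Elastic fibres let arteries, lung, skin and the heart's matrix stretch and recoil. Cells first lay down microfibrils, which are long polymers of fibrillin, and then deposit tropoelastin on them. Fibulins and EMILIN-1 join the soluble protein to the microfibril, the microfibril-associated glycoproteins decorate the scaffold, and lysyl oxidases crosslink the elastin core. Microfibrils also hold latent TGF-β through its binding proteins. In the heart, fibroblasts make much of this matrix.

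The promoters of the genes whose start lay under a peak are shown because openness at the start differed among them. Each is the RefSeq promoter of GRCm38.p6, from 250 bases before to 50 after the start, written on the gene's own strand. RefSeq entries were matched for 6 of the 10 genes, and Eln, Fbn2, Mfap4 and Mfap5 were not matched. Capitals mark GGGCGG, a letter string read by SP and KLF factors, or GTCTG, a SMAD element, on either strand (CCGCCC and CAGAC are their reverse complements). Fbln5 (chr12:101819070-101819369, minus strand) and Fbln2 (chr6:91212514-91212813, plus strand) belonged to start peaks with a lower density in siPiezo2 past the 1.5-fold limit as deposited, though median-of-ratios and trimmed mean scaling ended both calls. Fbn1 (chr2:125506389-125506688, minus strand), Emilin1 (chr5:30913536-30913835, plus strand) and Fbln1 (chr15:85205758-85206057, plus strand) belonged to start peaks inside that limit.
Fbln5: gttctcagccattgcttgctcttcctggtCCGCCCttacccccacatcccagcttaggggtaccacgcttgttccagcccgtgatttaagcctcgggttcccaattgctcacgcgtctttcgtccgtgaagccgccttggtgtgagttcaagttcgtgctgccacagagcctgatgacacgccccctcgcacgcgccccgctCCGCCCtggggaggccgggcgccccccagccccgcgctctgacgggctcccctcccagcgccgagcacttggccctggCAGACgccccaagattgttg
Fbln2: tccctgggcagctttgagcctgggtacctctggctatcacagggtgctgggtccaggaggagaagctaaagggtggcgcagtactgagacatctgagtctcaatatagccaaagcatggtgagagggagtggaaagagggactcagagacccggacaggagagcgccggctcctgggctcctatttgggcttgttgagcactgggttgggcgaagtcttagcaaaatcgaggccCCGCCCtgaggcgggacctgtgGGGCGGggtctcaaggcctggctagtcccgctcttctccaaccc
Fbn1: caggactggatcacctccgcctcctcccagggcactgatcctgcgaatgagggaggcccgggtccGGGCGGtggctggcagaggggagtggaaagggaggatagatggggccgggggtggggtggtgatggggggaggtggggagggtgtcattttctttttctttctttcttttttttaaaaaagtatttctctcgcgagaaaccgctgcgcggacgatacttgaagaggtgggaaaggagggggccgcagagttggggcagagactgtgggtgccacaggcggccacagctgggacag
Emilin1: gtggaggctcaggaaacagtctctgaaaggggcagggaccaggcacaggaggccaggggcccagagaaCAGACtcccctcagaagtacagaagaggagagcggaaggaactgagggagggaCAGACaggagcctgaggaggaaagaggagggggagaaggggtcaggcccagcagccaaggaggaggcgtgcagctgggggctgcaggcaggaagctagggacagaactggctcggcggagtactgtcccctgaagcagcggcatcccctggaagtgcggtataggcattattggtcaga
Fbln1: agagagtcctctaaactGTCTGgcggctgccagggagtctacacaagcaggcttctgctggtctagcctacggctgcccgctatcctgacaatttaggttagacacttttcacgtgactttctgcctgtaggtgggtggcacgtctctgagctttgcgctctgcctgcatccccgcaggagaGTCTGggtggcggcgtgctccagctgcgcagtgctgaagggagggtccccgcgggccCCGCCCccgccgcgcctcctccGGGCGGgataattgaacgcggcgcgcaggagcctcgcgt

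The Fbln5 promoter held GGGCGG on the opposite strand at -221 and at -48, and GTCTG on that strand at 30. In Fbln2 the string lay on both sides of the start, at -16 and at 6. Fbn1 had 1 match, at -185. Emilin1 had no GGGCGG but 2 GTCTG matches on the opposite strand, at -182 and -129. Fbln1, like Fbln5, had both kinds, with GGGCGG at -11 and at 11 and GTCTG at -233 and -68. CpG dinucleotides numbered 24 in Fbln5, 10 in Fbln2, 14 in Fbn1, 6 in Emilin1 and 24 in Fbln1, against a median of 7 over 32851 promoters. Of the 9 RefSeq promoters of the 6 genes, counting alternative starts, 5 held GGGCGG and 6 held GTCTG, against 35.7% and 49.6% of all promoters. One promoter, of Mfap2, held the TEAD string GGAATG (14.7% of all promoters). None held the AP-1 string TGANTCA (7.81%), the TATA box TATAAA (13.6%) or the CArG box of SRF (1.63%). These strings were searched on both strands, and none of the listed matches overlapped another. GGGCGG was thus held by promoters with a start peak past the limit (Fbln5, Fbln2) and with a start peak inside it (Fbn1, Fbln1). The RefSeq starts lay -64 to 1555 bp from the GENCODE start of the same gene on GRCm38, so a printed window need not be the whole of the accessible stretch.

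Each value below is a normalized read density, in reads per kb of a 2000-bp window. The ratio is log2((siPiezo2 + 1)/(SCR + 1)), and a peak or gene is called past 1.5-fold when (siPiezo2 + 1)/(SCR + 1) is below 0.66 or above 1.5. Brackets give a 95% exact binomial (Clopper-Pearson) interval from the recovered reads, which covers counting error only. Over all peaks the libraries held 4615335 reads in SCR and 2754046 in siPiezo2, so intervals were set mostly by the shallower siPiezo2 library. Among 8 fibroblast markers, 7 had a peak within 1 kb of a start (Thy1 had none), as against 1 of 6 for cardiomyocytes (Actn2), 1 of 5 for endothelium (Tek), 2 of 4 for mural cells (Myh11 and Notch3) and 0 of 4 for macrophages. Summed density of those peaks was 472.2 in SCR and 408.1 in siPiezo2 for the fibroblast list, 15.4 and 16.9 for cardiomyocytes, 25.8 and 28.1 for endothelium and 50.7 and 36.7 for mural cells, and the part of these lists in the results was not tested. Acta2, the smooth muscle actin of myofibroblasts, gave 164.8 and 43.2 (log2 ratio -1.91), and the 14 peaks of Piezo2 itself gave 334.0 and 241.8 (-0.46), which measures accessibility and does not check the knockdown.

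Density at these genes was mostly lower in siPiezo2, as it was over the whole table. Of the 61 peaks, 48 had a log2 ratio below 0 (78.7%, beside 63.7% of all peaks), and the median was -0.42 with quartiles of -0.53 and -0.14, beside -0.13 over all 63316 peaks. Past 1.5-fold, 14 of the 61 (23.0%) were lower, beside 13.5% of all peaks, and 0 were higher, beside 3.21% of all peaks. Under median-of-ratios or trimmed mean scaling 8 of the 61 were lower past it, beside 8.27% and 8.23% of all peaks. At those scalings 1 was higher past it, and the share of all peaks that were higher was not computed. Most of the 61, 42 peaks, entered the table through a call in SCR alone, the deeper library, and such a peak was picked where SCR was high. The 19 peaks called in both libraries had a median of -0.21, with 13 below 0 and 4 lower past the limit, and all 21398 such peaks had a median of 0.0025, with 49.7% below 0 and 5.36% lower past it. Fbn1 alone held 31 peaks. Without it 5 of 30 peaks were lower past the limit (16.7%) and the median was -0.38. The interval of 16 peaks lay below 0 (beside 11.4% of all peaks), that of 1 lay above 0 (beside 3.63%) and that of 44 included 0. Of the 61 windows, 19 overlapped that of another peak, so those peaks could share reads. In pooled cells, fewer cells with a site open and a less open site in each cell cannot be told apart.

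**Figure D1:**
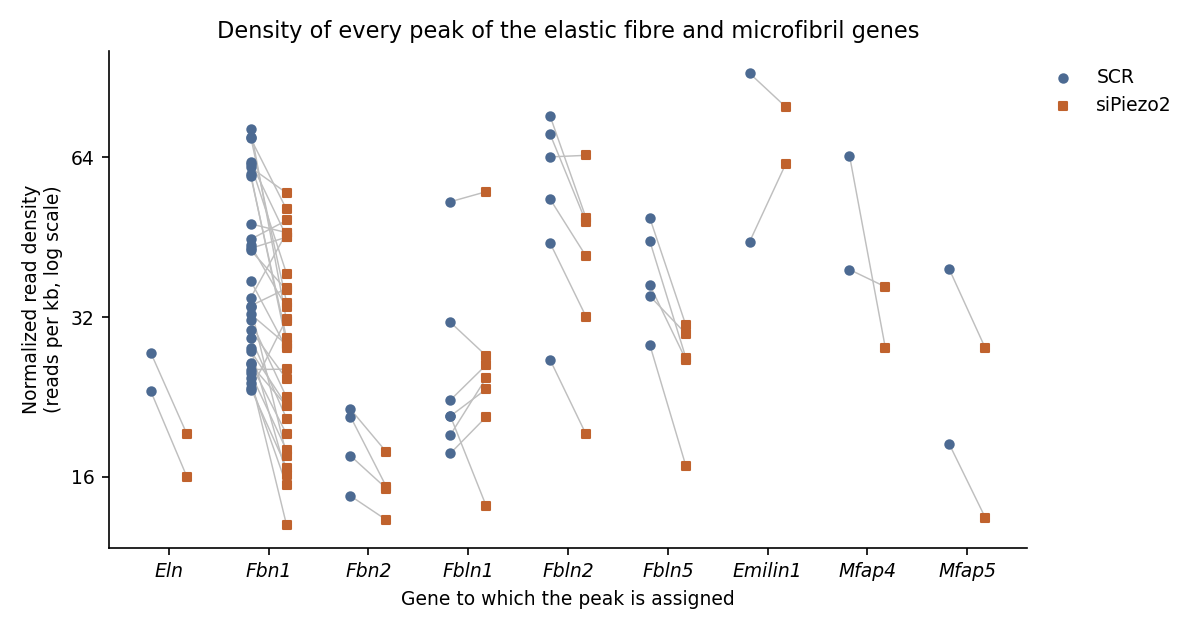
Normalized density (reads per kb, log scale) of each of the 61 peaks in SCR (circles) and siPiezo2 (squares), by gene, with a line joining the values of 1 peak. Lines slope down for every peak of Eln, Fbn2, Fbln5, Mfap4 and Mfap5, and up for 5 of the 7 peaks of Fbln1.

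Eln encodes tropoelastin, the elastic core of the fibre. It had 2 peaks, both called only in SCR. One lay 1159 bp before the start (chr5:134777210-134777462), where SCR had a density of 23.2 and siPiezo2 one of 16.02 (log2 ratio -0.51 [-1.24, 0.19]). The other lay in intron 1, with 27.4 and 19.3 (-0.49 [-1.15, 0.15]). Each interval included 0, while the 2 peaks summed went from 50.6 to 35.3 with an interval below 0 (-0.51 [-0.99, -0.039]). Both peaks were picked where SCR was high, which that interval does not account for. A further 3 peaks that lay nearest to the Eln start, 16.3 to 25.5 kb before it, were assigned to introns of the noncoding gene Gm30003 and so were not among the 61. The strongest of them had 51.2 in SCR and 33.6 in siPiezo2 (-0.59 [-1.09, -0.12]). That peak was called in both libraries. The others, called only in SCR, had ratios of -0.68 and -0.76, and all 3 intervals lay below 0. The last pair had overlapping windows.

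Fbn1 encodes fibrillin-1, the main polymer of adult microfibrils and the gene mutated in Marfan syndrome. It had 31 peaks, against a median of 2 per gene, and 11 genes had more. Summed over them, SCR had 1256 and siPiezo2 945.8 (log2 ratio -0.41 [-0.50, -0.32], from 3125 and 1476 reads). At 7 of these peaks the window overlapped a preceding one, so shared reads could count more than once and the interval could be too narrow. With separate windows the ratio was -0.38. Of its 31 peaks 25 were lower, beside 63.7% of all peaks, and 9 of them were past the limit, beside 13.5%. The other 6 were higher, none past the limit, beside 3.21%. Of the 31, 21 were called only in SCR, 7 of them lower past the limit, beside 18.3% of all peaks so called. The 10 called in both libraries had a median of -0.20 and 2 past it, beside 5.36%. The gene's ratio was -0.28 with those 10 and -0.27 under median-of-ratios scaling. The peak at the start, in the 5′ UTR and 1025 bp wide, was among the less changed, with 61.3 and 54.8 (-0.16 [-0.56, 0.23]).

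The lowest ratios of Fbn1 came from introns. A pair of peaks in intron 2, 22.0 and 21.3 kb inside the gene, had 72.4 in SCR and 31.5 in siPiezo2 (-1.18 [-1.67, -0.71]) and 69.96 and 34.1 (-1.02 [-1.49, -0.56]). Both were called only in SCR and so were picked where SCR was high. Their windows overlapped, so they are not separate measurements. A peak in intron 6, 53.6 kb inside, had 59.6 and 28.5 (-1.04 [-1.56, -0.54]), and one in intron 13, 121.8 kb inside, had 59.1 and 29.2 (-0.99 [-1.51, -0.50]). Both of these were called in both libraries. The strongest peak by mean density, in intron 64, had 69.5 and 51.0 (-0.44 [-0.84, -0.046]). At the other end, a second peak of intron 6, 77.0 kb inside, had 23.3 in SCR and 31.8 in siPiezo2 (0.43 [-0.14, 1.01]), and a peak of intron 54 had 34.8 and 46.2 (0.40 [-0.073, 0.87]). No peak of Fbn1 had an interval above 0, and 10 had one below it. The median ratio was -0.41 for the 15 peaks in the first 100 kb and -0.43 for the 16 beyond. Genes with 25 or more peaks had a median of -0.21 (39 genes, Fbn1 among them), none of which passed the limit in either direction.

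**Figure D2:**
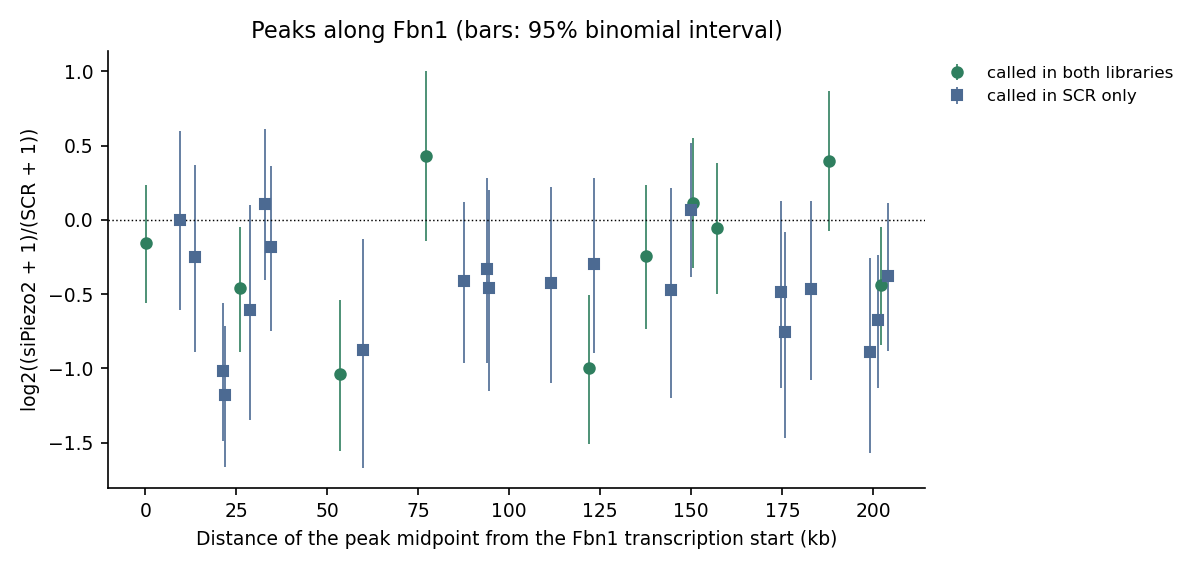
Log2 ratio of each Fbn1 peak (vertical axis, bars are 95% binomial intervals) against the distance of its midpoint from the transcription start in kb. The start peak lies at -0.16, and the lowest peaks lie between 21.3 and 121.8 kb.

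Fbn2 encodes fibrillin-2, the fibrillin of developing tissue. All 4 of its peaks lay in introns 5 and 7 and were called only in SCR, and none was assigned to its start. In intron 7 a peak 67.3 kb inside the gene had 21.5 in SCR and 17.8 in siPiezo2 (-0.26 [-0.97, 0.43]), and its neighbour at 66.8 kb, with an overlapping window, had 20.8 and 15.3 (-0.42 [-1.18, 0.31]). In intron 5 the peak at 55.5 kb had 14.7 and 13.3 (-0.14 [-0.99, 0.68]), and that at 43.9 kb had 17.5 and 15.2 (-0.19 [-0.98, 0.56]). Every interval included 0, as did that of the sum (74.5 and 61.6, -0.27 [-0.64, 0.093]). A difference was thus not detectable at this depth for Fbn2. The interval of Fbn1, in which shared reads could count more than once, was several times narrower.

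Of the 3 fibulins, Fbln5 and Fbln2 had summed intervals below 0, while that of Fbln1 included 0. Fbln5, which tethers tropoelastin to microfibrils and binds integrins, was lower at all 5 of its peaks, with a sum of 193.8 in SCR and 130.9 in siPiezo2 (-0.56 [-0.80, -0.32]). Its start peak (chr12:101785022-101785503, 44 bp before the nearest start), whose promoter is printed above, had 44.5 and 26.8 (-0.71 [-1.26, -0.18]). The 4 others all lay in intron 4, 11.3 to 41.2 kb inside the gene. The lowest had 28.4 and 16.8 (-0.72 [-1.42, -0.057]), the strongest had 49.2 and 30.9 (-0.65 [-1.17, -0.16]), and the peak farthest from the start had 35.0 and 29.8 (-0.23 [-0.77, 0.30]). An unassigned peak 11.8 kb before Fbln5 had 32.9 and 19.4 (-0.73 [-1.38, -0.11]).

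Fbln2, a fibulin that binds both fibrillin and basement membrane, had a sum of 335.6 in SCR and 255.1 in siPiezo2 over 6 peaks (-0.39 [-0.57, -0.22]). The peak 40 bp before a start had 76.6 and 49.2 (-0.63 [-1.03, -0.24]) and was the only one past the limit. A peak 1465 bp before the start had 64.1 and 64.6 (0.0098 [-0.37, 0.38]). The windows of the pair overlapped, as did their intervals. Inside the gene, intron 8 gave 70.8 and 48.4 (-0.54 [-0.95, -0.14]), and the remaining 3 peaks had ratios from -0.45 to -0.35 with intervals that included 0. Upstream of Fbln2 the table held a strong pair of peaks with overlapping windows, 9.6 and 10.2 kb before the start, with nearly level values, 108.7 and 118.4 for the stronger (0.12 [-0.16, 0.40]), and a peak at 19.6 kb with 66.1 and 40.7 (-0.69 [-1.13, -0.26]).

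Fbln1, which lies within elastic fibres and basement membranes, gave 185.0 in SCR and 191.1 in siPiezo2 over 7 peaks (0.047 [-0.17, 0.26]). Its start peak in the 5′ UTR had 17.7 and 20.8 (0.22 [-0.48, 0.91]). The strongest, in intron 14, had 52.8 and 55.1 (0.062 [-0.35, 0.47]). The lowest was in intron 3 (20.9 and 14.1, -0.53 [-1.32, 0.21]) and the highest in exon 11 (19.2 and 24.6, 0.34 [-0.31, 0.99]). No interval of an assigned Fbln1 peak excluded 0. An unassigned peak 18.8 kb before the gene had 14.0 and 24.2 (0.75 [0.047, 1.47]) from 32 and 40 reads.

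Emilin1 encodes EMILIN-1, a glycoprotein at the interface of elastin and microfibrils that also restrains TGF-β maturation. Its 2 peaks had ratios of opposite sign, and both were called in both libraries. The promoter peak, 67 bp before the start, was the strongest of all 61, with 92.2 in SCR and 79.7 in siPiezo2 (-0.21 [-0.54, 0.12]). The peak of intron 3 (chr5:31073338-31073657) had 44.4 and 62.1 (0.48 [0.067, 0.88]), the highest ratio of the 61 peaks and the only interval above 0. The sum, 136.6 and 141.9, had a ratio of 0.054 [-0.20, 0.30].

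Mfap4 encodes a microfibril-associated protein that binds tropoelastin and fibrillin. Its promoter peak (chr11:61375611-61376339, 282 bp before the start) went from 64.5 in SCR to 28.0 in siPiezo2 (-1.18 [-1.70, -0.69]), from 163 and 43 reads. It was called only in SCR, so it was picked where SCR was high. A peak in intron 5, 2.2 kb inside the gene and called in both libraries, had 39.3 and 36.5 (-0.11 [-0.60, 0.38]). The intervals of these 2 peaks of 1 short gene did not overlap, but the peaks differ in call class, so the gap cannot be told apart from that selection. Summed, Mfap4 gave 103.9 and 64.5 (-0.68 [-1.03, -0.34]), past the limit through the promoter peak alone.

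Mfap5 encodes MAGP-2, a small microfibril glycoprotein. The peak 119 bp before the nearest annotated start had 39.4 in SCR and 28.0 in siPiezo2 (-0.48 [-1.03, 0.050]), and lay 7.6 kb inside the gene as the table gives its longest span. The intron 1 peak had 18.4 and 13.4 (-0.43 [-1.25, 0.34]). Summed, the gene gave 57.8 and 41.4 (-0.47 [-0.92, -0.040]). Both peaks of Mfap5 were called only in SCR and so were picked where SCR was high, which the interval does not account for. Mfap2, which encodes the related MAGP-1, had no assigned peak. A single peak lay nearest to its start, 2163 bp before it, with 15.9 in SCR and 25.6 in siPiezo2 (0.65 [-0.021, 1.33]) from 37 and 42 reads, a direction opposite to that of Mfap4 and Mfap5.

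In order of the summed ratio the genes ran Mfap4, Fbln5, Eln, Mfap5, Fbn1, Fbln2, Fbn2, Fbln1 and Emilin1. Intervals of neighbours in that order overlapped throughout. Those of Fbn1, Fbln2, Fbln5 and Mfap4 ended below the lower bound of Fbln1 (-0.17). Peaks called only in SCR entered each sum (21 of 31, 3 of 6, 3 of 5 and 1 of 2, and 6 of 7 in Fbln1). With peaks called in both libraries the 4 ratios were -0.28, -0.38, -0.47 and -0.11, beside 0.062 for Fbln1. The intervals of Mfap4 and Fbln1 then overlapped. The median over the 9 genes was -0.41, beside -0.093 over all 16934 genes with a peak, and 7 of 9 (77.8%) were below 0, beside 62.6% of all genes. With peaks called in both libraries it was -0.19 over 6 genes, beside 0.0086 over all genes so read. Past 1.5-fold, 1 of the 9 was lower (Mfap4), beside 6.21% of all genes, and 0 were higher, beside 1.54%. The call of Mfap4 ended under median-of-ratios (-0.54), trimmed mean (-0.54) and same-total-density scaling (-0.59), and with peaks called in both libraries (-0.11).

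**Figure D3:**
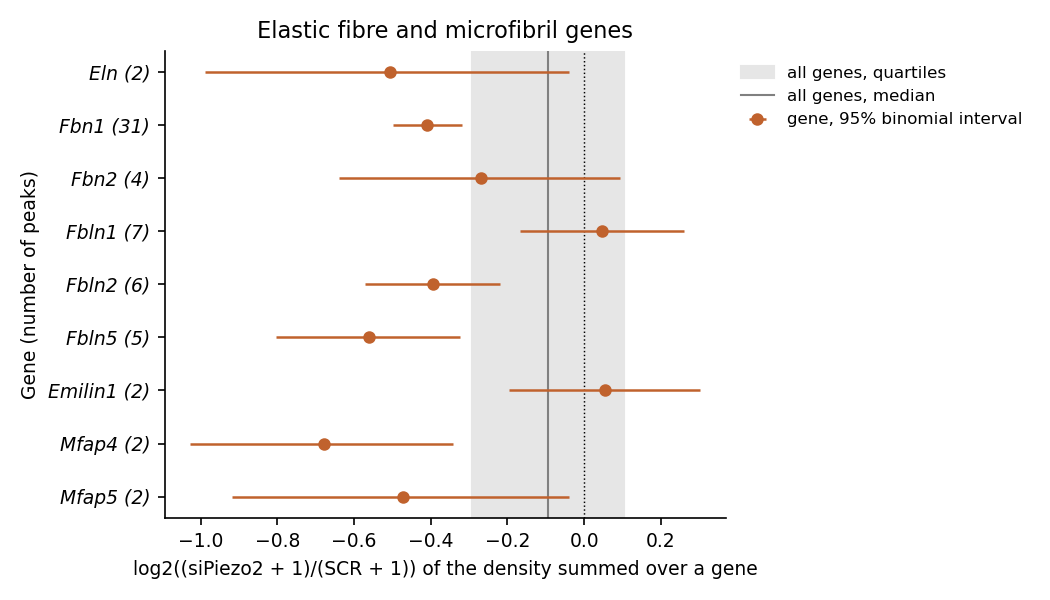
Log2 ratio of the density summed over the peaks of each gene (horizontal axis), with bars for the 95% binomial interval, the number of peaks in brackets, and the median and quartiles of all genes as a line and a band. Fbln1 and Emilin1 lie just above 0, and Mfap4 lies lowest at -0.68.

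Ratios were also read by the position of a peak and by the library that called it. The 5 peaks annotated as promoter within 1 kb (Fbln2, Fbln5, Emilin1, Mfap4 and Mfap5) had a median of -0.63 and 3 were past the limit, while all 9251 peaks of that class had a median of -0.030 and 5.86% lower past it. The calls of Fbln2 and Fbln5 ended under median-of-ratios (-0.49 and -0.57) and trimmed mean scaling (-0.49 and -0.57), and that of Fbln2 also at the same total density (-0.54), so the Mfap4 peak alone stayed past the limit under each of these. Of the 5, however, those of Fbln5, Mfap4 and Mfap5 were called only in SCR (2 of them past the limit, beside 12.4% of all promoter peaks so called). Those of Fbln2 and Emilin1, called in both libraries, had -0.63 and -0.21 (1 past it, beside 1.90%). The 49 intron peaks had a median of -0.41, beside -0.17 for all intron peaks. Of the 61 peaks, 42 (68.9%) were called only in SCR, 19 (31.1%) in both libraries and 0 only in siPiezo2, beside 64.05%, 33.8% and 2.16% of all peaks, so the members' shares lay near those of the whole table. A call in 1 library alone favours 1 sign of the ratio (73.05% of all peaks called only in SCR were below 0). The authors' fit centres the peaks called in both near 0. For these reasons the gap between these classes is no result. Peaks called only in SCR had a median of -0.44 in these genes and -0.23 over all such peaks. Peaks called in both had -0.21 and 0.0025. The 2 start peaks in a 5′ UTR, of Fbn1 and Fbln1 (-0.16 and 0.22), lay around the median of all 2599 peaks of that class (-0.043). In the 4 other classes the members' median was the lower. Of these, however, the exon class held only 2 member peaks, with ratios of -0.61 and 0.34. Promoter beyond 1 kb held 3.

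Beyond the assigned peaks, 20 others lay nearest to the start of 1 of 8 of these genes. Their median was -0.39, with 13 below 0 (beside 63.7% of all peaks), 6 lower past the limit (beside 13.5%) and 2 higher past it (beside 3.21%), the latter being those of Fbln1 and Mfap2 given above. Around Fbn1, 5 such peaks lay 8.8 to 48.1 kb upstream, with ratios from -0.64 to 0.17.

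A list of 38 other genes of elastic fibre assembly, crosslinking and turnover was read in the same way, and 35 had a peak (Emilin3, Mmp12 and Ctss had none). Their median was -0.24, with 28 below 0 (80.0%, beside 62.6% of all genes). Among peaks called in both libraries that median was 0.015 (21 genes). Past 1.5-fold, 4 of the 35 were lower (11.4%, beside 6.21% of all genes) and 1 was higher (beside 1.54%). The lowest was Lox, the lysyl oxidase that crosslinks elastin and collagen, with 189.0 in SCR and 90.2 in siPiezo2 (-1.06 [-1.34, -0.78]). Itga8, an integrin subunit of contractile mesenchymal cells, had 78.0 and 45.2 (-0.77 [-1.19, -0.37]). Fbln7, a further fibulin, had 17.02 and 9.74 at its only peak (-0.75 [-1.69, 0.13]), and Adamts10, a fibrillin-binding protease of the ADAMTS family, had 36.2 and 23.4 (-0.61 [-1.20, -0.040]). In the other direction, Loxl2, a lysyl oxidase-like enzyme, had 86.7 and 145.4 (0.74 [0.46, 1.01]), so members of the crosslinking family differed in sign. Ltbp3, which holds latent TGF-β, followed with 165.0 and 198.7 (0.27 [0.049, 0.48]), while its relative Ltbp4, which also takes part in elastic fibre assembly, had 224.6 and 154.9 (-0.53 [-0.76, -0.31]). The interval of 12 of these genes lay below 0 (beside 15.2% of all genes), that of 2 above 0 (beside 4.37%), and that of 21 included 0.

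**Figure D4:**
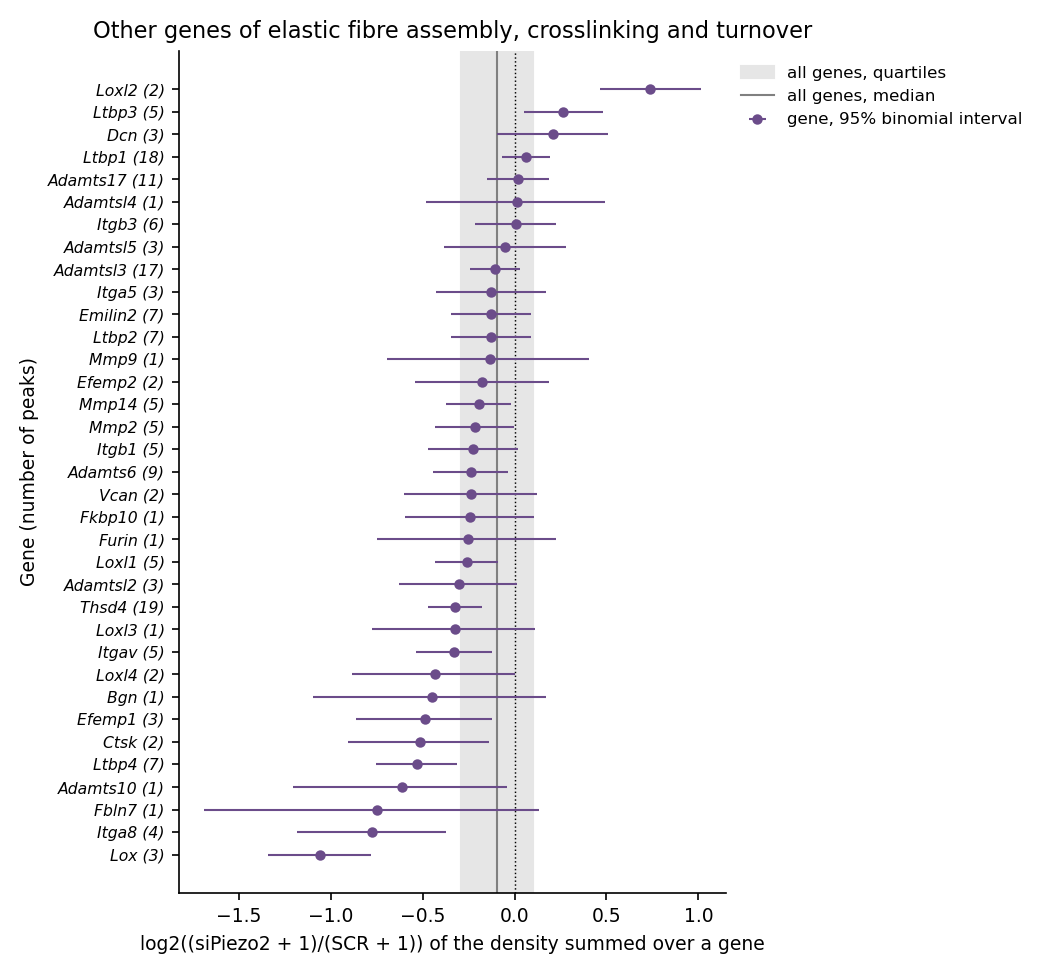
Log2 ratio of the summed density of the 35 other elastic fibre genes with a peak (horizontal axis), with 95% binomial intervals, the number of peaks in brackets, and the median and quartiles of all genes as a line and a band. Lox lies lowest at -1.06 and Loxl2 highest at 0.74.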

How the data were processed

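ATAC-seq was run on mouse primary cardiac fibroblasts, 1 library per group. Per the labels, libraries were made with a Tn5-based kit, and the submitters' processing notes name BWA 0.7.12 and mm10. The gene coordinates in the table differ from GRCm38 (mm10) for all 9 genes with a peak, so its positions are given as deposited and its build was not settled. Only the promoter sequences carry GRCm38.p6 positions.

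The authors deposited 1 table of merged peaks with a normalized signal per library, a read density as the MAnorm program gives it, in which a linear fit of the log ratio on the mean log density has been taken out. The table's fold changes, M and A values and p-values are the authors' own comparisons and were not used. The number of other per-sample columns was 0. Adding back a fit with intercept -0.2482 and slope 0.1738 gave whole reads for 100% of peaks (tolerance 0.05 reads).

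Ratios used a pseudocount of 1. A gene's density is the sum over its assigned peaks, and distances run from the peak's midpoint. Clopper-Pearson intervals on the reads were shifted to the reported ratio. Fold limits follow those that the study's methods give for expression. Every gene of the set was named, with all peaks of genes with up to 4 peaks and, for the others, start peaks, the strongest, the lowest and the highest. From the longer list the 4 lowest and 2 highest were named. Other peaks and genes given (further Fbn1, Fbln5 and Fbln2 peaks, flanking peaks and Ltbp4) were chosen after their values were seen. The genes, lists and limits were chosen with earlier results of these data known. Read recovery and intervals were tested on simulated data. Scripts ran in Python 3.11.15 with scipy 1.17.1, pandas 2.3.3 and numpy 2.4.6, and plots were drawn with matplotlib 3.10.9.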

Additional observations from a re-analysis of the deposited data

How the results depend on the processing

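With 1 library per group, spread between cultures was not measured and no paired analysis was possible because each group held 1 library. The median of all genes, -0.093 as reported, was 0.043 under median-of-ratios scaling, 0.046 under trimmed mean scaling, -0.0076 at the same total density, 0.030 with recovered reads at the same total and -0.71 with recovered reads left unscaled. The first 3 scalings shift every gene by nearly the same amount, so they cannot test the gap between the members and all genes. In that order, the median over member peaks was -0.28, -0.28, -0.33, -0.27 and -1.0, and over member genes -0.27, -0.27, -0.32, -0.33 and -1.06. For the longer list it was -0.098, -0.095, -0.15, -0.15 and -0.89.

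Member peaks lower past the limit numbered 8 under median-of-ratios and trimmed mean scaling (8.27% and 8.23% of all peaks), 50 without scaling (60.9%), 4 at a fold threshold of 2 (2.76%) and 4 of 19 among peaks called in both libraries (5.36%). Higher past it was 1 peak under median-of-ratios and trimmed mean scaling (Emilin1 intron 3) and 1 with recovered reads at the same total (Fbn1 intron 6, at 77.0 kb). The share of all peaks higher past it was not computed for these settings. Member genes lower past the limit numbered 0 under median-of-ratios, trimmed mean and same-total-density scaling (3.40%, 3.38% and 4.22% of all genes), at a fold threshold of 2 (0.839%) and among the 6 genes with peaks called in both libraries (2.71%). They numbered 8 without scaling (64.4% of all genes), 3 of 7 with peaks within 1 kb of a start (5.61%) and 2 with the strongest peak of a gene (8.64%). Genes of the longer list lower past it numbered 1 of 35 with recovered reads at the same total (3.11% of all genes) and at a fold threshold of 2 (0.839%), 1 of 21 with peaks called in both libraries (2.71%), 2 of 33 with peaks at or above the median density (5.70%) and 30 of 35 without scaling (64.4%). Those higher numbered 0 without scaling (0.118%) and at a fold threshold of 2 (0.154%), 3 of 35 with the strongest peak (2.61%) and 2 of 21 with peaks called in both libraries (2.41%).

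Peaks called in both libraries moved each median further than any scaling other than leaving reads unscaled, and gave -0.21 for member peaks, -0.19 for member genes and 0.015 for the longer list. Peaks at or above the median density gave -0.35 for member peaks and -0.19 for the longer list, and peaks within 1 kb gave -0.48 for member genes. A pseudocount of 0.1 and separate windows moved no median beyond a pooled interval and no count by more than 1.5 times. That interval came from the summed reads of the set, shifted to its median. It covers counting error of the pooled ratio and is not an interval of the median. By gene, Eln, Fbn1, Fbn2, Fbln5, Mfap4 and Mfap5 stayed below 0 under every alternative that kept a peak. Eln, Fbn2 and Mfap5 had no peak called in both libraries, so their signs were never read without peaks picked where SCR was high. Reads left unscaled put all 9 genes below 0, so that alternative could not test a sign. Fbln2 was below 0 in 10 of 11, Fbln1 in 1 of 11 and Emilin1 in 4 of 11.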
